A study of Rattus norvegicus with 4 samples.

Results

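Transcription factor genes of the families that build and maintain epidermis were followed in rat footpad skin through a course of irradiation. A gene was included when its symbol in the deposited gene tables belonged to the Tfap2, Klf, Sox, Fox (Foxa to Foxs), Gata, Grhl, Ovol, Hox, Dlx or Msx families, or was Tp63, Ehf, Elf1 to Elf5, Ets1, Ets2, Cebpa, Cebpb, Cebpd or Cebpg. The rule used symbols alone and no measured value. It found 84 genes among 18957 rows, 11471 of which had a symbol. The skin came from the hindlimb of Sprague Dawley rats, which are outbred, and 1 library was read for each of collection days 0, 3, 6 and 9. By the protocol, electrons of 9 MeV delivered 10 Gy at 500 cGy/min on each of days 1, 2, 4 and 5, which makes 4 irradiations, so that skin of days 3, 6 and 9 followed 2, 4 and 4 irradiations, and skin of day 0 none. The sample descriptions differ from this: they name 1 irradiation day for each later sample, and day 1 for collection of the day 0 sample. Age, sex, the number of animals behind a library and the time of day are not given in the labels.

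Epidermis is renewed from a basal layer of dividing keratinocytes that move upward, stop dividing and build the cornified layer. Tp63 maintains the basal state, AP-2 factors act with it on keratinocyte genes, and Klf4, Grhl, Ovol and Dlx factors take part in differentiation and barrier formation, knowledge that comes largely from mouse and human skin. C/EBP factors serve both differentiation and the response to inflammation. Sox and Fox factors mark many cell types of skin besides keratinocytes, and Hox genes record the position of a tissue along the body and limb.

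Transcripts were counted through 21-base tags that begin at CATG sites, and a gene's count is the sum of its tags. Gene counts came to 1982608 on day 0, 1968034 on day 3, 1967902 on day 6 and 1952921 on day 9. Since each day was read once, the spread between animals is unknown and nothing could be tested across them. Every 95% interval below covers counting error in the libraries compared and nothing else. Size alone decided whether a gene was called higher or lower: its scaled counts had to differ at least 2-fold with an interval that left out 1, and the larger count had to reach 50. In these bulk libraries, fewer cells of a type and less RNA per cell cannot be told apart. Marker sums of other tissues differed between libraries. All 11 listed skeletal muscle markers were at 0 counts on day 6, against summed counts of 5441, 11298 and 10378 on days 0, 3 and 9. The day 6 library also had the lowest counts of Krt9, a footpad keratin, and of sweat gland markers, both given below. Dermal fibroblast markers summed to 23046, 106069, 78716 and 72051 counts on days 0, 3, 6 and 9, and basal layer genes to 10216, 8306, 11069 and 9595. Most of the basal layer sum was Perp, with 7160, 5449, 7723 and 6509 counts, so the sum largely follows that gene. Macrophage markers summed to 877, 2118, 1481 and 1410 counts, and adipocyte markers to 387, 1440, 538 and 921.

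Of the 84 genes, 26 reached 50 counts in a library, 27 peaked at 10 to 49 counts and 31 stayed under 10. Together they held 8424, 6231, 6048 and 6345 counts on days 0, 3, 6 and 9. Scaled to CPM (counts for each 1000000) of the gene counts this was 4249 (4159 to 4340) on day 0, 3166 (3088 to 3246) on day 3, 3073 (2996 to 3152) on day 6 and 3249 (3170 to 3330) on day 9. Klf4 carried much of the difference. Without it the remaining 83 genes stood at 3075 (2998 to 3153), 2632 (2560 to 2704), 2593 (2522 to 2665) and 2682 (2610 to 2755) CPM on the same total, so day 0 was still the highest. Of the 26 genes with 50 counts, 10 were below day 0 on all 3 later days and 5 were above it on all 3. Foxp4, 1 of the 10, lay within counting error of day 0 each time. All 3 ratios of a gene share the same day 0 library. The same count over all genes was not made, here or for the single families below, so such counts are no result about these genes.

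By the rule, 2 of 26 genes with enough counts were higher and 2 lower on day 3, against 8.54% higher and 7.88% lower among all 5342 genes that could pass. On day 6, 0 of 25 were higher and 3 lower, against 7.48% and 13.1% of 5296 genes. On day 9, 2 of 26 were higher and 2 lower, against 10.7% and 10.4% of 5345 genes. In either direction the counts were 4 of 26, 3 of 25 and 4 of 26 family genes on days 3, 6 and 9, against 16.4, 20.6 and 21.1% of all genes, so as a group these factors passed the rule about as often as other genes, or less often, which was not tested and is no result about them. Their median log2 ratio, over the 45 with a mean of at least 10 counts, was -0.17, -0.04 and -0.26 over day 0 on days 3, 6 and 9, beside -0.01, 0.03 and 0.00 over 9835 genes with the same mean. The genes past the rule were Tfap2b and Klf4 (lower on all 3 days), Foxo4 (lower on day 6), Sox4 (higher on days 3 and 9), Sox18 (higher on day 3) and Cebpd (higher on day 9).

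**Figure D1:**
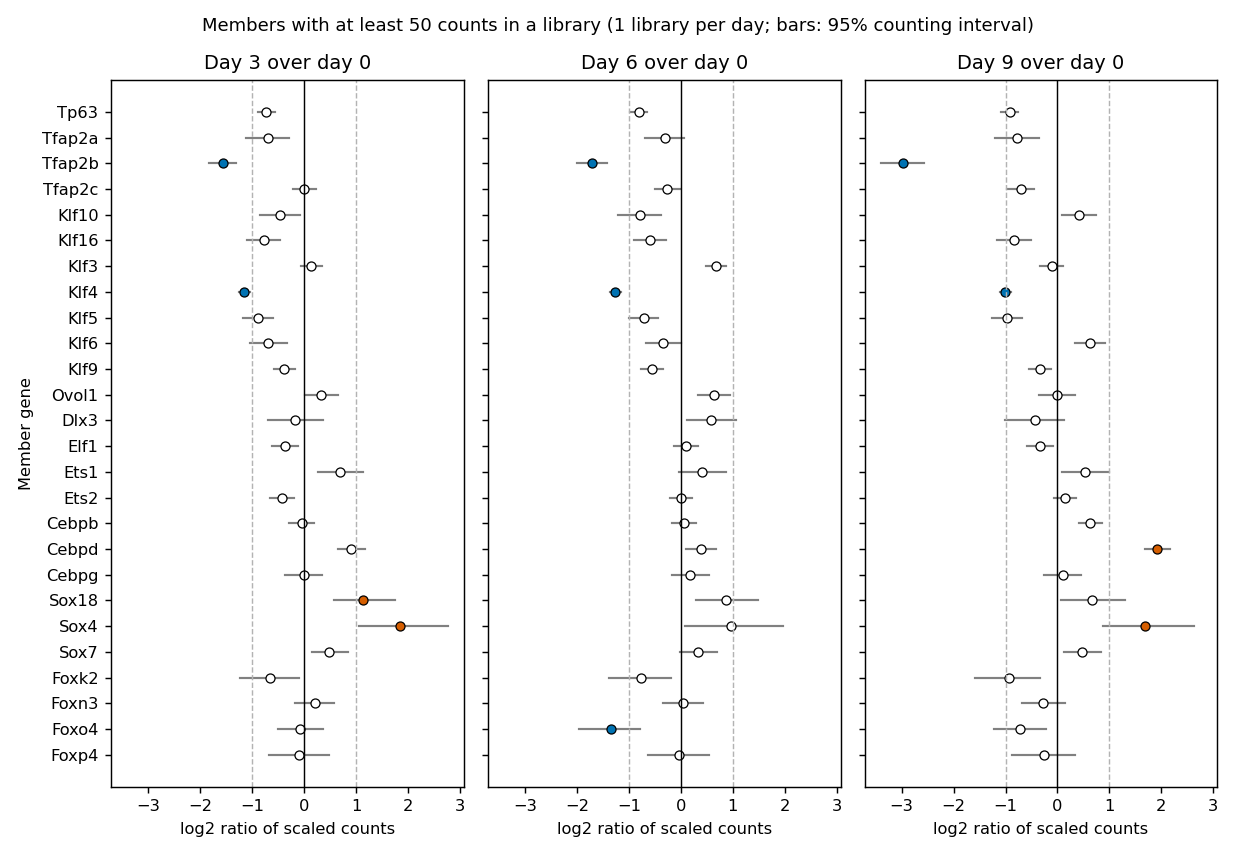
Ratio of scaled counts over day 0 on the log2 scale (x axis) for the 26 genes with at least 50 counts in a library, 1 panel for each later day; grey bars are 95% counting intervals, dashed lines mark 2-fold, and filled points passed the rule (orange higher, blue lower). Tfap2b lies furthest to the left in each panel, and Cebpd furthest to the right on day 9.

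**Figure D2:**
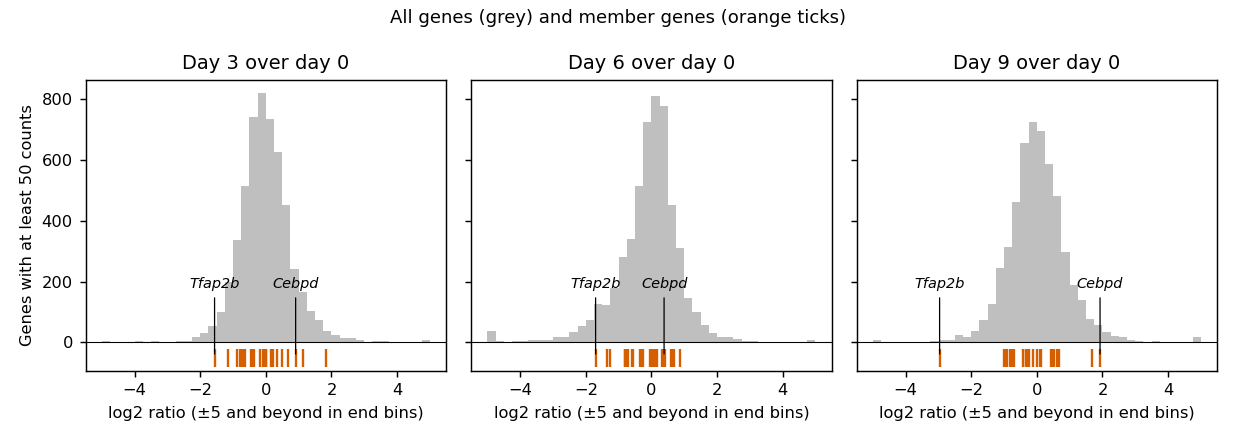
Histogram of the log2 ratio over day 0 for all genes that reached 50 counts in either library of the pair (grey, y axis in genes), with the family members as orange ticks under it. Most members lie within the bulk of all genes, and Tfap2b on day 9 lies far out in the lower tail.

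AP-2 factors bind GC-rich sites as dimers, and Tfap2a and Tfap2c are known in skin as partners of p63. Tfap2b is known from mouse for its part in kidney, limb and neural crest development. Among the family genes with 50 counts, Tfap2b had the lowest ratio over day 0 on each later day. The tags below are the places where its transcript was counted. Capitals mark the CATG at which each tag begins, and the number is the site's rank from the 3' end as deposited:
Tfap2b tag 1: CATGgagtttgttcctagtga
Tfap2b tag 2: CATGctgtctttagctaagcc
Tfap2b tag 6: CATGgacaagatgttcttgaa
Tfap2b had 463, 157, 138 and 56 counts on days 0, 3, 6 and 9. It was therefore highest on day 0, similar on days 3 and 6, and lowest on day 9. It was 2.96-fold (2.47 to 3.58) lower on day 3, 3.25-fold (2.69 to 3.97) lower on day 6 and 7.82-fold (5.96 to 10.6) lower on day 9 than on day 0. Among the 5345 genes that could pass on day 9, 20 were lower still. Its tags took the same course: tag 6 had 212, 87, 67 and 35 copies, tag 1 had 157, 47, 43 and 12, and tag 2 had 80, 21, 24 and 9. Each of these tags was lower than on day 0 on every later day, by 5.70-fold (4.02 to 8.51) for tag 6 and 8.07-fold (4.24 to 19.2) for tag 2 on day 9. Between days 6 and 9 Tfap2b was 2.40-fold (1.76 to 3.36) lower on day 9, a call that was lost when its most abundant tag was used alone.

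The other AP-2 genes did not pass the rule, but their levels also ended below day 0. Tfap2c had 326, 329, 264 and 190 counts on days 0, 3, 6 and 9, a level that was even on the first pair of days and 1.63-fold (1.36 to 1.97) lower on day 9 than on day 0. Tfap2e, known from mouse olfactory bulb, had 28, 21, 13 and 3 counts and was 7.76-fold (2.75 to 45.7) lower on day 9, with too few counts for the rule. Tfap2a had 133, 82, 104 and 74 counts and was 1.63-fold (1.23 to 2.17) lower on day 3, 1.24-fold (0.954 to 1.62) lower on day 6 and 1.71-fold (1.28 to 2.31) lower on day 9. Summed over the 4 genes, the family held 479 (449 to 511), 299 (276 to 324), 264 (242 to 287) and 165 (148 to 184) CPM of gene counts on days 0, 3, 6 and 9. All 4 ratios were below 1 on days 6 and 9 and 3 of 4 on day 3, also with library totals or DESeq2 size factors as the scale.

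Within Tfap2a the sites did not move together. These are the pair of tags that differ most:
Tfap2a tag 1: CATGgggagaaaaaaaataaa
Tfap2a tag 4: CATGggactaactcatcgcct
Tag 1, nearest the 3' end, had 64, 19, 25 and 7 copies on days 0, 3, 6 and 9, while tag 4 had 42, 52, 46 and 43. Tag 1 was 8.19-fold (3.99 to 22.5) lower on day 9 than on day 0, and tag 4 differed by 1.07-fold (0.686 to 1.68), with an interval that included 1. Tag 1 made up 9.46% (3.89 to 18.5) of the gene's counts on day 9 and 48.1% (39.4 to 56.9) on day 0, so that nearly all of the gene's lower count on day 9 lay at that site. Of 2957 genes with enough counts in both libraries, 7.44% had intervals of this share that lay apart between days 9 and 0, and among the families it was 2 of 19, Tfap2a and Tp63. What sets the use of these sites was not tested.

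**Figure D3:**
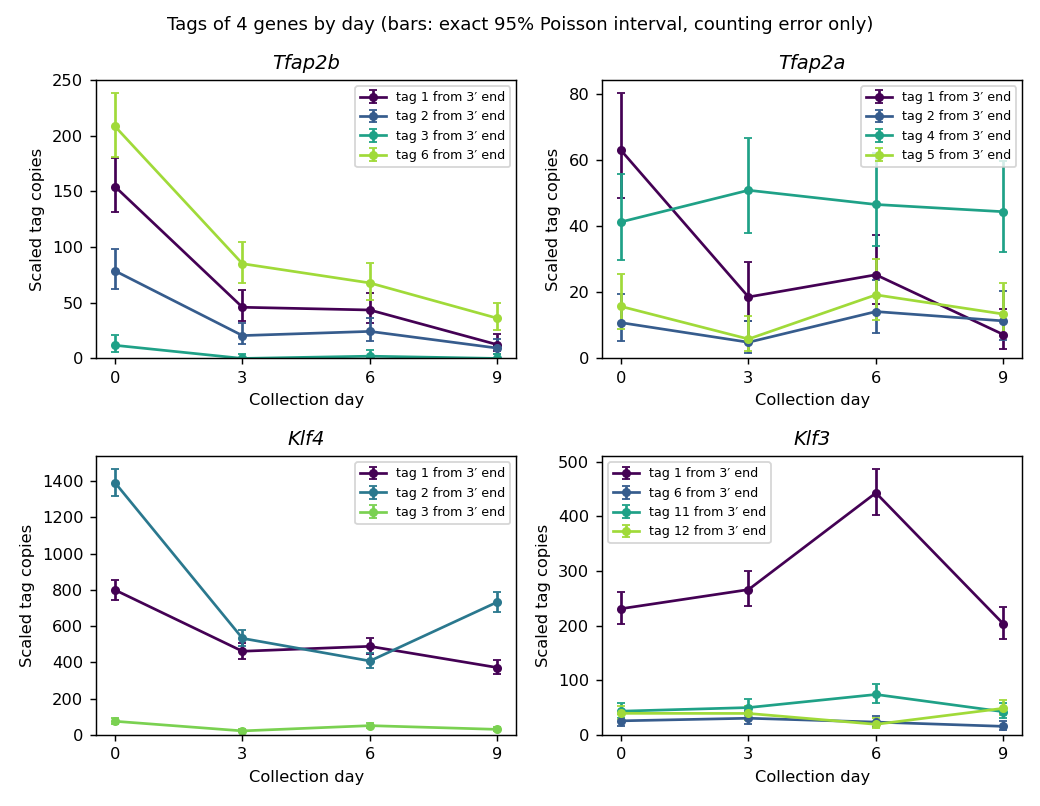
Scaled copies (y axis) of single tags of Tfap2b, Tfap2a, Klf4 and Klf3 by collection day (x axis), with exact 95% Poisson intervals; tags are numbered by their site's rank from the 3' end. All plotted tags of Tfap2b lie below day 0 on the later days, whereas tag 1 of Tfap2a lies below it and tag 4 stays level.

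Tp63, the regulator that keeps basal keratinocytes in their stem-like state, had 845, 513, 467 and 425 counts on days 0, 3, 6 and 9. Day 0 was the highest of the 4 libraries and day 9 the lowest. The gene was 1.65-fold (1.48 to 1.85) lower on day 3, 1.76-fold (1.57 to 1.97) lower on day 6 and 1.89-fold (1.68 to 2.13) lower on day 9, each interval above 1 and each ratio short of the 2-fold rule. Most of its copies lay at the first site from the 3' end, and the other tags shown here were lower after day 0 as well:
Tp63 tag 1: CATGcaataaaatttaaaaat
Tp63 tag 3: CATGgagaacagacgtctgct
Tp63 tag 13: CATGtatggtgacagatattt
Tag 1 had 637, 444, 372 and 370 copies, tag 3 had 42, 16, 15 and 8, and tag 13 had 39, 11, 20 and 13. Tags at the first site made up 91.8% (88.7 to 94.2) of Tp63 counts on day 9 and 83.9% (81.3 to 86.3) on day 0. Of 11 basal layer genes with enough counts, 2 were lower and 0 higher on day 3, 2 lower and 0 higher on day 6, and 1 lower and 1 higher on day 9, with median log2 ratios of -0.40, 0.11 and 0.03. Krt14, a keratin of the basal layer, had 295, 144, 319 and 353 counts.

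Klf4, which mouse epidermis needs for a working barrier, had 2328, 1052, 946 and 1108 counts on days 0, 3, 6 and 9. The 3 later libraries lay close together and all well below day 0. The gene was 2.22-fold (2.07 to 2.39) lower on day 3, 2.39-fold (2.22 to 2.58) lower on day 6 and 2.00-fold (1.86 to 2.15) lower on day 9. The day 9 value lay at the edge of the rule: the call was lost with DESeq2 size factors, with a prior count of 5, with the whole interval required past 2-fold, or with the most abundant tag alone. Its pair of main tags kept different courses:
Klf4 tag 1: CATGgaaagaccaccttgtat
Klf4 tag 2: CATGgtcaagttcccagcaag
Tag 2 had 1417, 545, 403 and 711 copies on days 0, 3, 6 and 9, and tag 1 had 814, 472, 483 and 360. On day 6 tag 2 was 3.41-fold (3.06 to 3.82) lower than on day 0 and tag 1 was 1.64-fold (1.46 to 1.84) lower. On day 9 the order turned round, with tag 2 at 1.90-fold (1.73 to 2.08) lower and tag 1 at 2.15-fold (1.90 to 2.45) lower. Tags at the first site were 51.3% (48.0 to 54.5) of Klf4 counts on day 6 and 35.2% (33.2 to 37.2) on day 0. Intervals of this share lay apart for 4 of 20 family genes on day 6, against 12.5% of 2915 genes, and for 3 of 20 on day 3, against 7.56% of 3083 genes.

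Klf5, a factor of proliferating basal keratinocytes, had 298, 162, 176 and 145 counts on days 0, 3, 6 and 9. It was 1.85-fold (1.52 to 2.25) lower on day 3, 1.64-fold (1.36 to 1.99) lower on day 6 and 1.95-fold (1.60 to 2.40) lower on day 9, close to the rule without passing it. Klf16 had 224, 131, 144 and 120 counts and was likewise highest on day 0, at 1.77-fold (1.42 to 2.24) lower on day 9. Klf9, a glucocorticoid-induced member, had 446, 345, 295 and 338 counts, with ratios between 1.26-fold and 1.47-fold lower. Klf11 had 37, 12, 10 and 23 counts, and was 3.02-fold (1.58 to 6.53) lower on day 3 and 3.47-fold (1.75 to 8.10) lower on day 6, with too few counts for the rule. Klf15 had 30, 21, 19 and 15 counts.

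Of the 10 genes with 50 counts that stood below day 0 on every later day, 7 have a promoter in the table. In those sequences, Klf5, Klf9 and Foxp4 held the AP-2 palindrome described next, and Klf4, Tp63, Foxk2 and Foxo4 did not. Klf4 and Klf5 are printed as 1 example of each, chosen after their letters were seen. Among the genes past the rule, Tfap2b, Sox4, Sox18, Cebpd, Klf10 and Dlx3 have no entry. Sequences are from RefSeq on build GRCr8 and run from 250 bases before to 50 bases after the gene's start. The motifs searched on both strands were the AP-2 palindrome GCCNNNGGC, the CACCC box CCACACCC and the TATA box TATAAA, and their matches are in capitals. The first is Klf4, minus strand, chr5:75078543-75078842, and the second Klf5, plus strand, chr15:82471831-82472130:
Klf4: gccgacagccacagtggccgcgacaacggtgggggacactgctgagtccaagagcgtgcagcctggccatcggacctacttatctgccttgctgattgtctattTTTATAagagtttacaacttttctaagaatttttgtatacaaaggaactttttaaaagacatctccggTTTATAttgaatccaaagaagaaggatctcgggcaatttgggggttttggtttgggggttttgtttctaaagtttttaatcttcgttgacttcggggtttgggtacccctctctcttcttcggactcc
Klf5: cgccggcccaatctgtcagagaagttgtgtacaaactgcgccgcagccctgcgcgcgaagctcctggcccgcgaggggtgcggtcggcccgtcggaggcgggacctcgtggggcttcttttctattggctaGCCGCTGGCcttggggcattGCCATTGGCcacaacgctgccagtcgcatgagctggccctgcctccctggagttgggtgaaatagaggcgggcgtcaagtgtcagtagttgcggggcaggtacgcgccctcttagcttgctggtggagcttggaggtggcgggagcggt
The Klf5 sequence held the AP-2 palindrome, and the Klf4 sequence the TATA box on the other strand. Whether the RefSeq start is the start of transcription in this skin was not tested. The Klf4 letters may therefore lie outside its promoter, and they do not show what that promoter holds or lacks. The same limit applies to the other genes. Of 47 family promoters in the table, 16 (34.0%) held the AP-2 palindrome, against 15.6% of all 27457 promoters. Family promoters were also richer in G and C, with a median of 64.7% against 52.3%. The CACCC box stood in 4.26% of family promoters and 3.23% of all, and the TATA box in 17.0% and 14.3%. A match is a run of letters and not a shown binding site.

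Some Klf genes took another course. Klf6, known to be induced by tissue injury, had 173, 108, 133 and 255 counts on days 0, 3, 6 and 9, lowest on day 3 and highest on day 9, where it was 1.55-fold (1.27 to 1.89) higher than on day 0. Klf10, a gene induced by TGF-beta, had 141, 103, 79 and 180 counts, and was 1.73-fold (1.31 to 2.31) lower on day 6 and 1.34-fold (1.07 to 1.68) higher on day 9. Klf3, a repressor, was highest on day 6, with 364, 404, 569 and 321 counts and a ratio of 1.61-fold (1.41 to 1.84) over day 0. Its main tag (site 1) had 235, 272, 438 and 197 copies, while the tag at site 12 had 40, 40, 19 and 47 and was lowest on day 6. Over the 10 Klf genes with a mean of at least 10 counts, 9, 9 and 7 were below day 0 on days 3, 6 and 9, also with the other scales, with median log2 ratios of -0.62, -0.66 and -0.47. Klf7 had 12, 8, 6 and 20 counts, and Klf1 and Klf2 had at most 4.

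**Figure D4:**
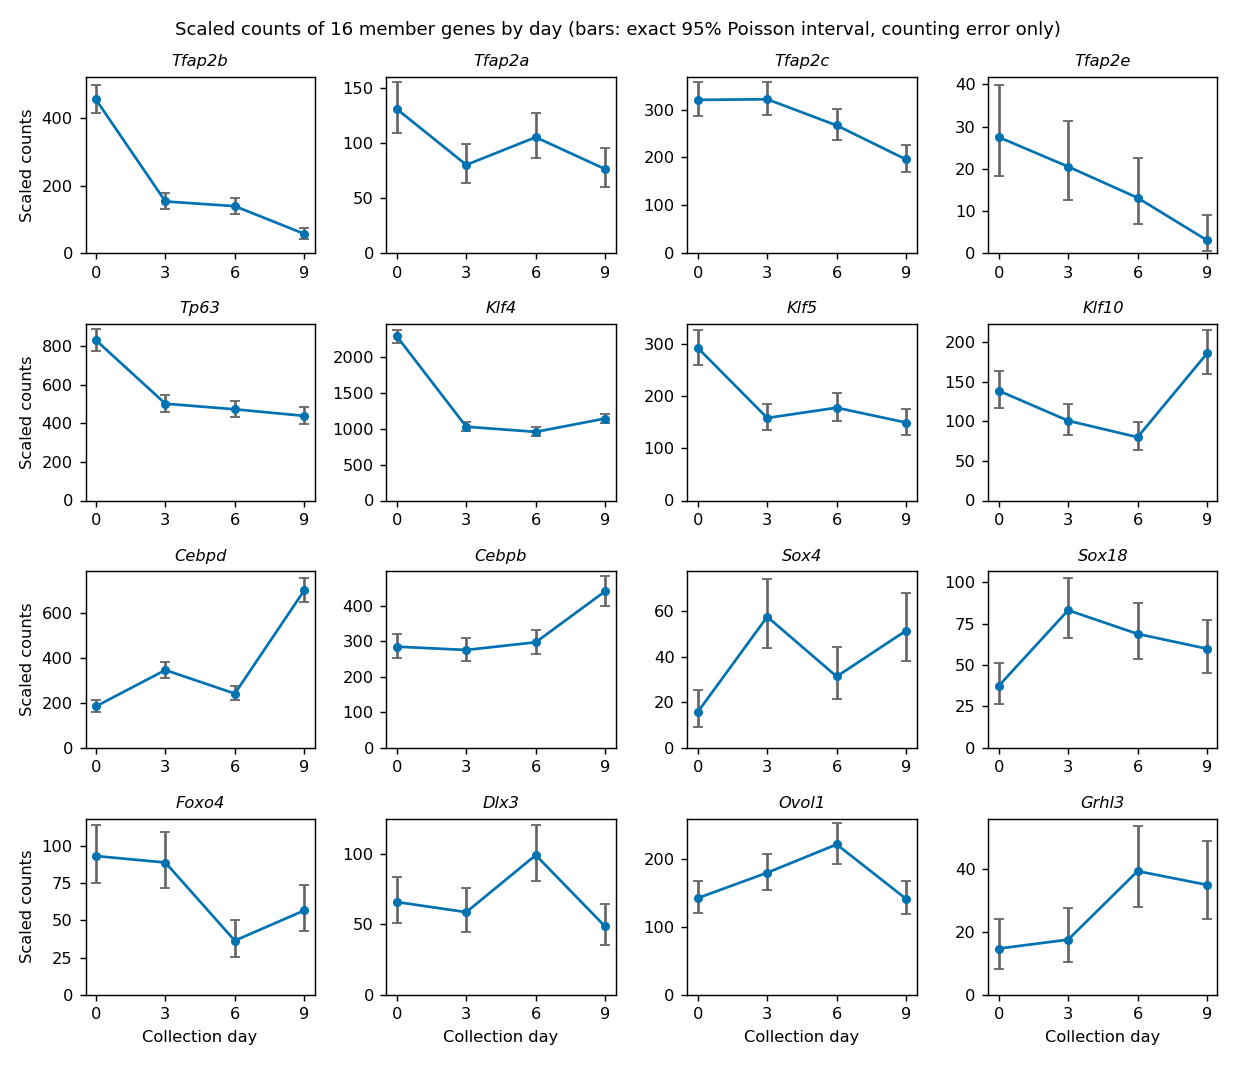
Scaled counts (y axis, from 0) by collection day (x axis) for 16 genes, each point 1 library with its exact 95% Poisson interval. Tfap2b, Tp63, Klf4 and Klf5 are highest on day 0, Cebpd and Cebpb on day 9, and Ovol1, Dlx3 and Grhl3 on day 6.

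Ovol1, Dlx3 and Grhl3, which serve differentiation as Klf4 does, had their highest counts on day 6 and not on day 0. Ovol1, a repressor that helps keratinocytes leave the cell cycle, had 145, 184, 219 and 137 counts on days 0, 3, 6 and 9. It was 1.55-fold (1.25 to 1.93) higher on day 6 and level with day 0 on day 9, at 1.01-fold (0.793 to 1.28) lower. Dlx3, a homeobox factor of the granular layer, had 67, 60, 98 and 47 counts, and was 1.5-fold (1.09 to 2.09) higher on day 6 than on day 0. Grhl3, which mouse skin needs for the barrier and for wound closure, had 15, 18, 39 and 34 counts through 1 tag, and was 2.62-fold (1.44 to 5.23) higher on day 6 and 2.34-fold (1.26 to 4.70) higher on day 9, under the 50 counts of the rule. Grhl2 had 5, 0, 2 and 4 counts, and Ovol2 had 10, 4, 5 and 5.

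Epithelial Ets factors were scarce in these counts. Ehf had 0, 11, 16 and 17 counts on days 0, 3, 6 and 9, listed in every later library and at 0 on day 0. With the day 0 library set to a floor of 3 counts, Ehf was 3.65-fold higher on day 3, 5.49-fold on day 6 and 5.95-fold on day 9. These are ratios to the floor without a counting interval, and the counts were too few for the rule. Elf3, which acts on cornified envelope genes, had 6, 7, 2 and 7 counts, and Elf5 had 2 counts on day 9 alone. Ets2 and Elf1 are widely expressed members. Ets2 had 378, 283, 370 and 397 counts and Elf1 had 308, 241, 320 and 233, both lower on day 3 than on day 0 by 1.34-fold (1.15 to 1.57) and 1.28-fold (1.08 to 1.53). Ets1, which is also active in endothelium and lymphocytes, had 74, 120, 96 and 102 counts and was 1.61-fold (1.2 to 2.19) higher on day 3. Elf2 had 44, 30, 45 and 46 counts.

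Cebpd and Cebpb had their highest counts on day 9. Cebpd, an acute-phase factor switched on by inflammatory cytokines, had 188, 355, 239 and 682 counts on days 0, 3, 6 and 9, nearly all at 1 tag:
Cebpd tag 1: CATGctttttatattcatttt
The course was not even, with more counts on day 3, fewer on day 6 and the peak on day 9. Cebpd was 1.88-fold (1.57 to 2.25) higher on day 3, 1.31-fold (1.08 to 1.59) higher on day 6 and 3.80-fold (3.24 to 4.50) higher on day 9 than on day 0. With library totals in place of scaled totals it also passed on day 3. Cebpb, its relative in inflammation and differentiation, had 290, 282, 294 and 428 counts, level on the first 3 days and 1.55-fold (1.33 to 1.80) higher on day 9. Cebpg, a dimer partner with no activation domain of its own, had 133, 133, 147 and 136 counts and stayed within 1.14-fold of day 0. Cebpa had 2 counts on day 0 and was not listed later. The sum of the family was 309 (285 to 335), 391 (364 to 420), 346 (320 to 373) and 638 (603 to 674) CPM of gene counts on days 0, 3, 6 and 9. Neutrophil markers were high on day 9 as Cebpd was, but not on day 3: 5 listed genes summed to 82, 62, 46 and 1019 counts on days 0, 3, 6 and 9. Of the day 9 sum, 891 counts were S100a9, a gene that keratinocytes of injured skin also make. S100a8, its partner, had 122 on day 9, Cxcr2 had 6, and Csf3r and Ngp were at 0. Adipocyte markers, whose sums are given above, were higher on days 3 and 9 than on day 6, as Cebpd was, with their largest sum on day 3. Adipoq, an adipocyte hormone, had 41, 448, 35 and 165 counts, and Fabp4, a fatty acid carrier, had 132, 516, 302 and 470. The part of either cell type in the Cebpd values was not tested.

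**Figure D5:**
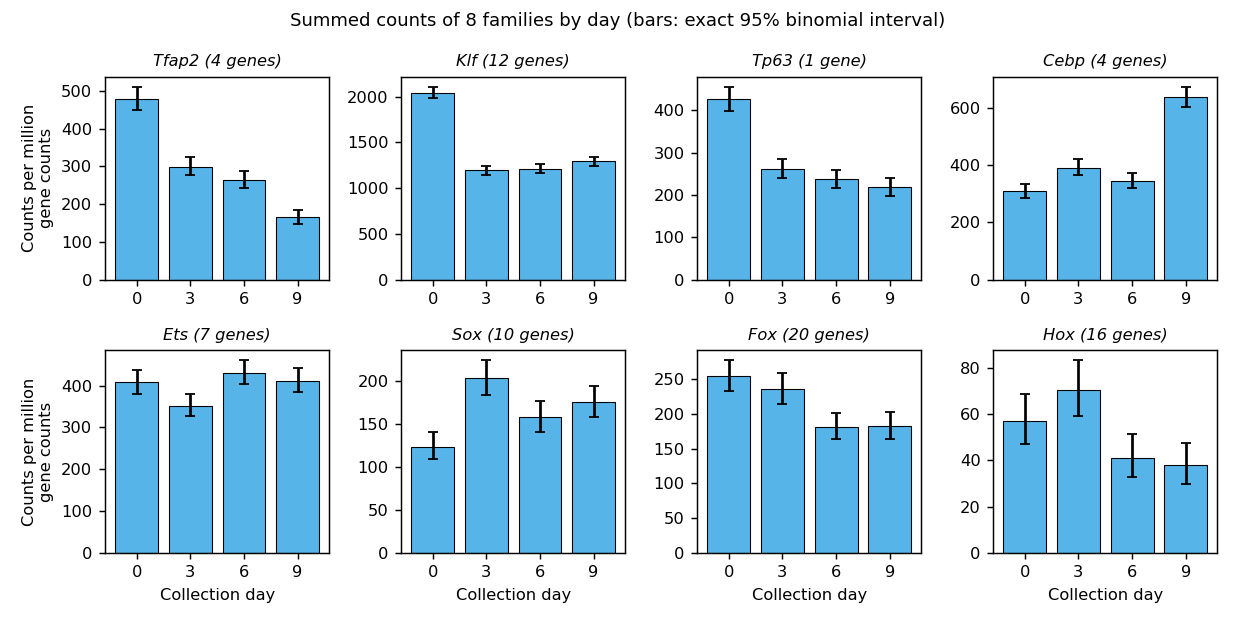
Summed CPM of gene counts (y axis, from 0) by collection day (x axis) for 8 families, with exact 95% binomial intervals that cover counting error only. Tfap2, Klf and Tp63 are highest on day 0, Sox on day 3 and Cebp on day 9.

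Of 6 Sox genes with a mean of at least 10 counts, 5, 4 and 5 were above day 0 on days 3, 6 and 9, with median log2 ratios of 0.76, 0.47 and 0.56. With library totals as the scale all 6 were above it on day 3. Sox4, a factor of progenitor cells in many tissues, had 16, 59, 31 and 50 counts on days 0, 3, 6 and 9, and every later library was above day 0. It was 3.59-fold (2.08 to 6.83) higher on day 3, 1.97-fold (1.06 to 3.90) higher on day 6 and 3.21-fold (1.84 to 6.17) higher on day 9. Its counts were spread over 5 tags, the main ones being:
Sox4 tag 1: CATGacaggcacgaggacccc
Sox4 tag 4: CATGttatcctgtctatcttt
Sox4 tag 9: CATGtccctgggcagtttcag
Tag 1 had 4, 16, 4 and 14 copies, tag 4 had 7, 18, 8 and 18, and tag 9 had 5, 21, 14 and 12. All 3 tags were higher on days 3 and 9 than on day 0, and with the most abundant tag alone the counts were too few for the rule.

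Sox18, Sox17 and Sox7 form the group of Sox factors of endothelial cells. Sox18 had 38, 85, 68 and 58 counts, all at 1 tag, CATGtggccaagtggcagggc, and was 2.21-fold (1.5 to 3.35) higher on day 3, 1.83-fold (1.22 to 2.82) higher on day 6 and 1.59-fold (1.05 to 2.48) higher on day 9. Sox7 had 121, 171, 148 and 161 counts, and was 1.40-fold (1.11 to 1.79) higher on day 3 and 1.40-fold (1.10 to 1.78) higher on day 9. Sox17 had 27, 31, 26 and 34 counts and did not differ from day 0 beyond counting error. Endothelial markers summed to 880, 1317, 1611 and 1127 counts on days 0, 3, 6 and 9, and their median log2 ratios were 0.35, 0.67 and 0.20 on the later days. Of 7, 7 and 6 such markers with enough counts, 0 passed on day 3, 2 were higher on day 6 (Plvap and Vwf) and 1 on day 9 (Egfl7), so that their largest sum fell on day 6 and the largest count of Sox18 on day 3. Sox18 on day 6 was 1.21-fold (0.868 to 1.69) lower than on day 3, within counting error. Among endothelial genes, Cdh5 had 0, 2, 0 and 0 counts and Kdr had 2, 0, 3 and 7. Their part in the Sox18 value was not tested.

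Of the other Sox genes, Sox13 had 10, 21, 15 and 15 counts, Sox15 had 14, 9, 9 and 8, and Sox10, a factor of melanocytes and Schwann cells, had 18, 17, 12 and 10. Melanocyte and Schwann cell markers summed to 556, 889, 580 and 542 counts. Sox2, Sox6 and Sox8 had at most 4 counts.

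Fox genes were the largest family, with 20 members, and 4 of them reached 50 counts. Foxo4, a factor held out of the nucleus by insulin and growth factor signals, had 95, 91, 36 and 55 counts on days 0, 3, 6 and 9, nearly all at the tag CATGtgctagattggagtggg. Day 6 was the lowest library, with day 9 between it and the earlier pair. Foxo4 was 2.54-fold (1.73 to 3.87) lower on day 6 than on day 0 and 2.42-fold (1.64 to 3.70) lower on day 6 than on day 3. On day 9 it was 1.64-fold (1.17 to 2.34) lower than on day 0. The skeletal muscle markers that were at 0 on day 6 moved the same way between days 3 and 6, but on day 9 they stood at 10378 counts, above day 0, while Foxo4 did not. Their part in the Foxo4 value was not tested.

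Foxk2 had 69, 44, 39 and 34 counts and was 1.92-fold (1.26 to 3.01) lower on day 9. Its paralog Foxk1 had 39, 10, 16 and 32 counts at 1 tag, 3.78-fold (1.92 to 8.81) lower on day 3 and 1.16-fold (0.709 to 1.91) lower on day 9. Foxn3, with 114, 132, 114 and 90 counts, and Foxp4, with 54, 51, 51 and 43, did not differ from day 0 beyond counting error. Foxq1 had 35, 26, 44 and 23 counts, and Foxp1 had 37, 27, 11 and 23. Of 8 Fox genes with a mean of at least 10 counts, 6, 6 and 7 were below day 0 on days 3, 6 and 9. With library totals as the scale it was 4 of 8 on day 3, and the other days gave the same numbers.

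Foxi1 and Foxc1, both known in mouse from sweat glands, which footpads carry, were lowest on day 6. Foxi1 had 4, 16, 0 and 4 counts and Foxc1 had 11, 15, 3 and 12 on days 0, 3, 6 and 9. The sums of sweat gland markers, 610, 964, 206 and 617 counts, were also largest on day 3 and lowest on day 6. Single markers differed. Krt19, a keratin of simple epithelium, had 84, 264, 5 and 85 counts. Aqp5, another gene of that list, had 157, 156, 56 and 173, also lowest on day 6 but level on days 0 and 3. The factors' counts were too few for the rule, and the part of the sampled glands was not tested. Keratinocyte factor Foxn1 had 4, 2, 0 and 2 counts, and Foxm1, a driver of mitotic genes, had 6, 3, 7 and 7. Foxo1 had 3, 6, 5 and 2 counts, and Foxp3, the factor of regulatory T cells, was listed on day 6 alone with 4. The other Fox genes were Foxh1, with 18, 5, 9 and 4 counts, Foxp2, with 6, 15, 8 and 2, and Foxc2, Foxj1, Foxj2, Foxj3 and Foxs1, with at most 9.

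Hox genes were few in counts and named many positions. Of 16, 8 were listed on day 0, 15 on day 3, 10 on day 6 and 9 on day 9. Of all 18957 rows, 15236, 15608, 14972 and 15501 were listed on the same days. Hox genes listed on day 3 and not on day 0 had only 2 to 9 counts there. The Hox sum was 113, 139, 81 and 74 counts on days 0, 3, 6 and 9. Groups 9 and 10 pattern the trunk and proximal limb. Hoxd9 had 37, 27, 13 and 24 counts and Hoxd10 had 14, 36, 27 and 19, so that these neighbours in 1 cluster had their highest counts on different days. Hoxc9 had 22, 16, 4 and 4 counts and was 4.76-fold (1.78 to 20.9) lower on day 9, and Hoxa9 had 18, 4, 2 and 3 and was 5.04-fold (1.67 to 30.3) lower. Hoxb7 had 10, 18, 20 and 12 counts. Hoxa13 and Hoxd13, which pattern the hand and foot, were listed with 9 and 3 counts on day 3 and with 3 and 0 on day 6, and stood at 0 on days 0 and 9. The other Hox genes had at most 7 counts. None reached the 50 counts of the rule. Gata2, a factor of mast cells and endothelium, had 17, 30, 16 and 12 counts, and T cell and mast cell markers had sums of 343, 723, 356 and 425. The genes in that sum differed in course. Cpa3, a mast cell protease, had 98, 376, 178 and 221 counts, and Cma1, another, had 84, 109, 46 and 35 and was lower by the rule on day 9. The T cell genes Cd2, with 15, 4, 3 and 13 counts, and Cd3e, with 10, 2, 0 and 8, had fewer on days 3 and 6 than on day 0. Their part in the Gata2 counts was not tested. Dlx1 had 13, 3, 7 and 2 counts, Dlx5 had 5, 4, 5 and 3, Msx2 had 10, 9, 12 and 4, and Msx3 had 2 on day 0. Gata3, Sox9, Grhl1, Foxo3 and Hoxc13 were not among the symbols of the tables and are not analysed here.

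Successive days were compared as well. By the protocol, day 3 followed 2 irradiations and days 6 and 9 followed 4. The libraries also differ in time and in the markers of other tissues given above. With 1 library per day these differences cannot be told apart. From day 3 to day 6, 1 of 25 family genes passed, Foxo4, which was lower, against 6.74% of 5101 genes lower, 2.88% higher and 9.63% in either direction. From day 6 to day 9, 4 of 25 passed, 2 in each direction, against 10.0% of 5127 genes higher, 4.37% lower and 14.4% in either direction. Cebpd was 2.91-fold (2.51 to 3.39) higher on day 9 than on day 6, and Klf10 was 2.31-fold (1.77 to 3.07) higher. Tfap2b was lower as given above, and Dlx3 was 2.03-fold (1.43 to 2.96) lower, a call lost with a prior count of 5 or with the authors' value. The calls of Sox4, Sox18, Foxo4, Klf10 and Dlx3, and that of Tfap2b between days 6 and 9, rest on fewer than 200 counts in the higher library.

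A list of other regulators of epidermis, outside these families, held 44 genes, of which 37 were listed in the tables. On day 3, 1 of 20 with enough counts was higher and 1 lower, and on day 6 again 1 and 1 of 20. On day 9 it was 3 and 2 of 19. Among all genes, 8.54% were higher and 7.88% lower on day 3, 7.48% and 13.1% on day 6, and 10.7% and 10.4% on day 9. The same shares stand beside the counts of the basal layer, endothelial and differentiation lists. Notch1, a receptor that promotes keratinocyte differentiation, had 67, 150, 214 and 139 counts on days 0, 3, 6 and 9 and was higher on every later day, by 3.27-fold (2.49 to 4.39) on day 6. Rarg, the main retinoic acid receptor of epidermis, had 292, 134, 104 and 94 counts and was lower on every later day, by 2.95-fold (2.34 to 3.77) on day 9. Mxd1, a partner of Max in differentiating cells, was 2.29-fold (1.64 to 3.28) higher on day 9 and Rora 2.02-fold (1.52 to 2.72) higher, while Tcf3 was 2.06-fold (1.41 to 3.09) lower.

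A list of genes of the differentiating layers, drawn up as genes on which these factors act, held 30 genes. Of these, 16 had counts in these data, all enough for the rule, and they moved in both directions. On day 3, 1 was higher and 5 lower. On day 6, 2 were higher and 3 lower, and on day 9, 3 were higher and 3 lower. Median log2 ratios were -0.36, -0.02 and 0.15. Whether the factors act on these genes in this skin was not tested. Tgm1, the transglutaminase of the cornified envelope and a target of Grhl3 in mouse, had 304, 111, 110 and 224 counts on days 0, 3, 6 and 9. It was 2.74-fold (2.21 to 3.45) lower on day 3 and 2.68-fold (2.15 to 3.37) lower on day 6. Grhl3 had its highest count on day 6, but on day 9 it was only 1.12-fold (0.692 to 1.84) lower than that, within counting error. The part of Grhl3 in the Tgm1 values was not tested. Krt9, the keratin of footpad epidermis, had 153, 559, 6 and 40 counts. It was 3.63-fold (3.03 to 4.38) higher on day 3, 22.9-fold (11.1 to 68.5) lower on day 6 and 3.61-fold (2.56 to 5.30) lower on day 9 than on day 0, and 83.2-fold (41.1 to 246) lower on day 6 than on day 3. Sprr1a, an envelope precursor, had 739, 307, 160 and 2909 counts, lowest on day 6 and highest on day 9. Krt10, the suprabasal keratin, had 13717, 4763, 10006 and 5777 counts and was lower by the rule on days 3 and 9. The 2 genes higher on day 6 were Lce1f, with 1088, 1536, 2366 and 1820 counts, and Kprp, with 1636, 1424, 3217 and 3053. Cnfn and Klk7 were higher on day 9, as Sprr1a was. Summed over the list, counts were 45294, 36663, 60877 and 50421, largest on day 6. Krt1, with 21013, 23380, 38510 and 29506, made up much of that sum.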

How the data were processed

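For every library a table of genes and one of tags was used. The deposited gene count, per the file headers and values, is the sum of the copies of a gene's tags, and tags seen fewer than 2 times were left out by the authors. The deposited column headed TPM held CPM, that is copies scaled to the total of tags seen at least 2 times, not scaled by length. The genome build was Rnor_6.0, per the submitters' processing notes. Aligner, mismatch limit and annotation release: not given in the sources used here. Samples were grouped by the day in their titles.

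Counts were joined by gene ID and scaled with TMM factors from edgeR 4.0.16 on gene counts. Ratios used a prior count of 0.5. Intervals are exact Clopper-Pearson 95% intervals. A library at 0 was set to a floor of 3 counts for that library. Neither edgeR's nor DESeq2's test can estimate spread from 1 library per day, so none was run. Gene counts were 56.9, 60.6, 57.1 and 58.7% of tags seen at least 2 times on days 0, 3, 6 and 9, so a count of 0 does not show absence. The rule was run on simulated counts for day 3 over day 0 that held counting error alone. It called 48 of 50 genes set to a 2.5-fold difference and 3 of 18757 set to none. Spread between animals or in the tissue sampled was not simulated, so the run says nothing about either.

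Counts in all libraries are given for genes past the rule in any of 5 comparisons and for a list of well-known epidermal factors; other genes with counts are named beyond that rule, after their values were seen. The family members, the 12 lists and the rule were chosen with earlier results of these data known. Of the 84 genes, 83 were found by gene ID in the reference table and 47 had a promoter. Alternatives covered the scale (library totals, DESeq2 1.42.0 size factors), the count floor, fold, interval, prior count, authors' value plus 1, and the most abundant tag alone.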

Additional observations from a re-analysis of the deposited data

How the results depend on the processing

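No paired analysis was possible because each day had 1 library. The number of family genes past the rule was 4, 3 and 4 on days 3, 6 and 9 against day 0, 1 on day 6 against day 3 and 4 on day 9 against day 6. In that order it was 12, 12, 11, 6 and 9 with a floor of 10 counts, 13, 12, 11, 6 and 9 with none, and 12, 12, 14, 3 and 9 at 1.5-fold. Calls over all genes grew too, to 1918, 2362, 2315, 1388 and 1807 with a floor of 10, against 877, 1090, 1129, 491 and 739. A floor of 200 gave 2, 2, 3, 0 and 1, the whole interval past 2-fold 3, 2, 2, 0 and 1, and the most abundant tag alone 3, 3, 2, 1 and 5. Library totals gave 5, 3, 4, 2 and 4. The other scale, prior count and authors' value left each count within 1.5 times. Of 50 such counts, 27 stayed within 1.5 times. The median log2 ratio became 0.01 in place of -0.04 on day 6 with a mean of at least 50 counts, and -0.27 in place of -0.14 on day 6 against day 3 with library totals, which moved the median of all genes there to -0.12 from 0.02. Library totals also moved the median of all genes on day 3 against day 0 to 0.10 from -0.01, and the share of higher among called genes to 62.7% from 52.0% (63.2% with the authors' value); for day 6 against day 3 that share was 17.6% with totals and 16.8% with the authors' value, against 29.9%. Of 890 ratios of 36 named genes, 867 stayed within their counting interval and 0 called ones changed direction. The cause was not tested. Depth limits the 58 genes under 50 counts most.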

Other observations

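Some rows without a symbol carry a deposited protein match to these families. A row matched to a rat homeobox protein Hox-A10-like had 13, 4, 3 and 9 counts on days 0, 3, 6 and 9. A row matched to forkhead box protein N2-like had 3 counts on day 9 alone, and a row matched to a hamster AP-2-epsilon-like protein had 2 counts on day 3 alone.

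A pair of Tp63 tags 1 base apart was listed under the gene. The main tag, CATGcaataaaatttaaaaat, with 637, 444, 372 and 370 copies on days 0, 3, 6 and 9, stood beside CATGcaataaaatttaaaaaa, with 58, 18, 25 and 17, which differs by T21A, counted from 1 at the tag's 5′ end.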
